A study of Mus musculus with 18 samples.

Results

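The genes described here encode the receptors, co-receptors and ligands of vascular endothelial growth factor (VEGF) signalling: the receptors Kdr, Flt1 and Flt4, the neuropilins Nrp1 and Nrp2, and the ligands Vegfa and Vegfc. Open chromatin peaks of all 18 lung endothelial samples were merged into consensus regions, and a region was assigned to one of these genes when its midpoint lay closest to that gene's transcription start site (TSS) or inside its gene body. This gave 87 of the 47338 consensus regions, of which 77 were assigned by the nearest TSS and 10 by the gene body alone. Of the latter, 8 lay inside Nrp1 but closest to Mir1903, a microRNA gene within it, and 2 lay inside Flt1 but closest to Pan3.

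The samples were lung endothelial cells of 2-month-old (young) and 18-month-old (aged) FVB mice of mixed sex, all of which carried a Col1α1-GFP reporter, a green fluorescent label of collagen-producing cells. Each mouse had received either PBS (sham) or bleomycin, a DNA-damaging agent that injures the lung, through the trachea, and lungs were taken on day 30. Cells were sorted as CD45-, EpCAM-, GFP- and CD31+, and each peak list came from 1 mouse. There were 5 samples each of Young Sham and Aged Bleo, and 4 each of Young Bleo and Aged Sham. Chromatin accessibility was measured by ATAC-seq, in which a transposase inserts adapters into open DNA.

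VEGF ligands bind receptor tyrosine kinases on the endothelial surface. Kdr (VEGFR2) carries most of the signal of Vegfa for endothelial growth, survival and permeability. Flt1 (VEGFR1) binds Vegfa tightly with weak kinase activity, so that it can act as a decoy. Flt4 (VEGFR3) is the receptor for Vegfc and is best known from lymphatic endothelium. The neuropilins hold ligands next to the receptors and also bind semaphorins. In the lung, the microvascular endothelium that forms the gas exchange surface depends on this pathway.

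The lists held 21050 to 40883 peaks, and the share of all consensus regions with a peak ran from 43.0% to 80.4%. Aged Bleo libraries fell widely apart, with 76.7% and 80.4% of all regions called in replicates 1 and 2 against 43.0% to 59.8% in the other three. The median peak had 25 to 33 fragments at its summit over a background of 1.02 to 1.78. These fragment numbers were solved from the fold enrichment and p-value of each peak, and they cover counting error only. A missing peak says that a site was not called at this depth, not that its chromatin was closed. File names carried a code, L6, L7 or L8, that the labels do not explain and that is read here as the sequencing lane. It placed all Aged Bleo samples and Aged Sham 4 in lane 6, and Aged Sham 1 to 3 and Young Bleo 1 to 3 in lane 7. Young Bleo 4 and all Young Sham samples were in lane 8, so lane and group cannot be fully told apart. Young Sham shared no lane with either aged group, so lane cannot be told apart from age in those comparisons. A called region covered the TSS of the endothelial genes Cdh5, Erg, Cldn5, Tie1 and Robo4 in all 18 samples, of Pecam1 (CD31) in 17, of Tek in 15 and of Emcn in 7. No TSS of 4 leukocyte or 4 epithelial markers was covered in any sample, nor were those of Col1a1, Pdgfrb and Pdpn. The TSSs of Pdgfra and Myh11, markers of fibroblasts and smooth muscle, were covered in all 18, and that of the lymphatic factor Prox1 in 17. Accessibility of a promoter does not give the level of its transcript, which was not analysed here.

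Of the 87 regions, 48 (55.2%) lay in introns, 30 (34.5%) were intergenic and 6 (6.90%) lay at promoters, with 2 in exons and 1 in an untranslated region. Flt1 had 28 regions, Kdr 19, Nrp2 11, Nrp1 10, Flt4 7, and Vegfa and Vegfc 6 each. A peak was present in all 18 samples at 28 of them (32.2%), against 36.8% of all consensus regions. At the other end, 20 regions (22.99%) had a peak in only 2 or 3 samples, against 14.1% of all regions. To compare strength between lists of different depth, each peak was ranked by fold enrichment within its own list, as the percentile among the 17432 regions called in all 18 samples. The 28 shared regions had median percentiles of 7.79 to 90.04 (median 24.8), and 5 of them lay above 50. The other 59 were weak, with a median of 2.39, and 55 of them lay below the 10th percentile.

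**Figure D1:**
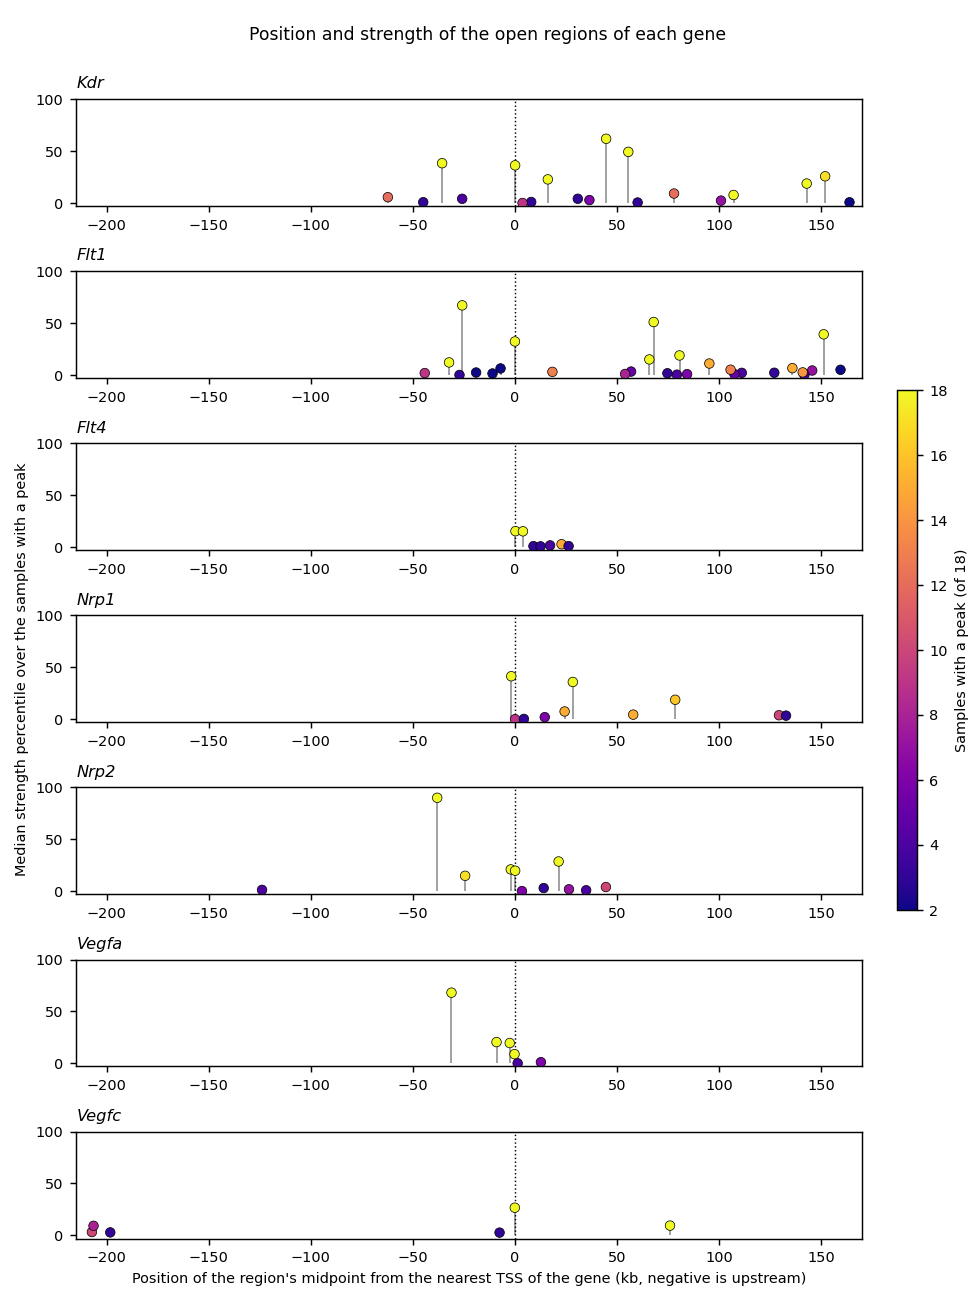
Each panel plots the consensus regions of one gene by distance from the TSS (x axis, kb) and by median within-list strength percentile (y axis), with the colour showing how many of the 18 samples had a peak. The strongest regions of Kdr, Flt1, Nrp1, Nrp2 and Vegfa lie away from the TSS, up to a median percentile of 90.04 for the Nrp2 region 38.1 kb upstream.

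A region was called a promoter when its midpoint lay from 1000 bp before to 100 bp after a TSS. By that rule Vegfc was the only gene whose strongest region was a promoter, but the strongest region of Flt4, with its midpoint 0.2 kb downstream, also covered the TSS. The promoter windows of Kdr, Flt1, Nrp2, Vegfa and Vegfc held a region with a peak in all 18 samples, and that of Nrp1 in 9. The Flt4 region over the TSS was called in all 18 samples as well.

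Among the regions whose presence or strength differed between groups, 7 are printed here as examples. Each is 200 bp of the mouse reference genome (RefSeq, GRCm38.p6, + strand) around the strongest summit, and none overlaps an exon. Capitals mark matches on either strand to short motifs of factors that act in endothelium. These are CAGGAAG for ETS factors, AGATAA for the family of Gata2, and TGTTTAC for forkhead factors.
Kdr, 25.9 kb upstream (chr5:76004243-76004442): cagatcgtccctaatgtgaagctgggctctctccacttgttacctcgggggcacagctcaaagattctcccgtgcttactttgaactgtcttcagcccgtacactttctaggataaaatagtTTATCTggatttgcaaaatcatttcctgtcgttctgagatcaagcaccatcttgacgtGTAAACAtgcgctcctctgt
Flt1, 84.3 kb downstream (chr5:147641609-147641808): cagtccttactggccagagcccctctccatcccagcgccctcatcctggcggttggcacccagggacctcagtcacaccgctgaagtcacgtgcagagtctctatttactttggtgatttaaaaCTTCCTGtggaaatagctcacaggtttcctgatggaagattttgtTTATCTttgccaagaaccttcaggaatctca
Flt1, 44.2 kb upstream (chr5:147769952-147770151): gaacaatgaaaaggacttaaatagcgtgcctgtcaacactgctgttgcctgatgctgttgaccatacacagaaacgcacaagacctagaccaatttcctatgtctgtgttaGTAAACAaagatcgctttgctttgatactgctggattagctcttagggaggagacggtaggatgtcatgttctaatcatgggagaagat
Nrp1, 14.6 kb downstream (chr8:128373469-128373668): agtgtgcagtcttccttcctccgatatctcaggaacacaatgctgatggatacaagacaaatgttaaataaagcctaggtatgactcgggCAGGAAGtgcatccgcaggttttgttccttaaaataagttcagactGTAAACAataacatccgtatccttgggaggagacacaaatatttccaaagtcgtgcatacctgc
Nrp1, 28.3 kb downstream (chr8:128387268-128387467): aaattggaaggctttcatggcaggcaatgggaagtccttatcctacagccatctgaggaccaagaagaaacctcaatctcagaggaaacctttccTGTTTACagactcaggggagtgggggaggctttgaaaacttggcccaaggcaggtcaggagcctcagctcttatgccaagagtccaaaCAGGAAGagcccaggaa
Nrp2, 26.4 kb downstream (chr1:62729676-62729875): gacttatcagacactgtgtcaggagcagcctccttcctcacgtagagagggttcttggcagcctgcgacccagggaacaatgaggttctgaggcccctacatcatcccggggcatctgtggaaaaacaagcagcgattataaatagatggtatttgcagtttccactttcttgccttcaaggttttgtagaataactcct
Vegfc, 207.3 kb upstream (chr8:53870111-53870310): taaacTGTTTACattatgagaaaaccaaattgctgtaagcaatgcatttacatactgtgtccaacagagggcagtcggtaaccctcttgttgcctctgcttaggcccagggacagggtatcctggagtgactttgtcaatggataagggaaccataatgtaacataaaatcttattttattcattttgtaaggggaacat
The Nrp2 window 26.4 kb downstream holds none of the motifs searched. Of the differing regions not printed, Kdr 101.0 kb and 77.9 kb, Nrp2 3.4 kb and Flt4 26.3 kb downstream hold none either. The same holds for Nrp1 1.8 kb upstream and for the Flt1 and Nrp2 promoters. Each other differing region not printed holds a match, but all of those with forkhead letters are printed. Over all 15 regions whose presence differed, the ETS letters were found in 5, the forkhead letters in 4 and the Gata2 letters in 3. A match is a description of the letters and not of a bound factor.

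Across all 87 windows, the ETS letters were found in 29 (33.3%), against 19.99% of all consensus regions. Forkhead letters were found in 10 (11.5% against 4.43%) and the Gata2 letters in 13 (14.9% against 9.65%). The AP-1 letters TGANTCA were found in 6 (6.90% against 8.72%) and the SOX letters ACAATGG in 6 (6.90% against 5.63%). Both strands were searched, and matches of different motifs could overlap.

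Kdr spans chr5:75932827-75978455 on the minus strand, and its regions ran from 62.3 kb upstream to 163.9 kb downstream of the TSS. Its strongest region covered the untranslated last part of the gene, 44.7 kb downstream, with a median percentile of 61.9 (45.96 to 79.1) and a median of 105 fragments. Intergenic regions 55.5 kb downstream and 35.7 kb upstream followed, with medians of 49.3 and 38.4. The promoter region was called in every sample, at percentiles of 44.1, 26.8, 28.4, 29.0 and 40.1 in Young Sham, 27.6, 37.3, 40.5 and 26.3 in Young Bleo, 53.4, 25.2, 28.8 and 44.4 in Aged Sham, and 35.3, 35.4, 47.0, 62.1 and 54.1 in Aged Bleo. All 4 groups overlapped, and no comparison of it passed the test.

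A further 3 Kdr regions, each called most often in Young Sham, passed an unadjusted p in at least 1 comparison of presence given later, and none passed adjustment. The intergenic region 25.9 kb upstream (chr5:76004185-76004505, whose sequence is given earlier) had a peak in Young Sham 1 to 4, with 13, 24, 18 and 16 fragments at the summit, and in no other sample. The region 101.0 kb downstream (chr5:75877196-75877801) was called in 4 of 5 Young Sham samples, 2 of 4 Young Bleo, no Aged Sham and 1 of 5 Aged Bleo samples, with 12 to 22 fragments where present. The region 77.9 kb downstream (chr5:75900219-75900815) was called in all 5 Young Sham samples, with 18, 27, 22, 26 and 16 fragments, and in 1 of 4 Young Bleo, 3 of 4 Aged Sham and 3 of 5 Aged Bleo samples.

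Flt1 lies on the same chromosome (chr5:147561604-147726011, minus strand), and most of its regions were in introns. The strongest was intergenic, 25.9 kb upstream, with a median percentile of 67.2 (35.35 to 80.1) and 100 fragments. Intronic regions 68.0 kb and 151.3 kb downstream had medians of 51.1 and 39.3. At the promoter, Young Sham samples had percentiles of 25.7, 12.6, 19.2, 28.2 and 35.4, and Aged Bleo samples 41.2, 37.7, 42.1, 42.0 and 48.6. All Aged Bleo values were above all Young Sham values. Young Bleo (37.2, 38.8, 26.2 and 25.6) and Aged Sham (32.4, 31.1, 32.5 and 31.1) overlapped with Young Sham.

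For Flt1, 3 regions passed an unadjusted p in a comparison of presence. The intergenic region 44.2 kb upstream (chr5:147769810-147770661) was called in all 5 Young Sham samples, with 22, 24, 13, 18 and 9 fragments. It was called in no Young Bleo sample, in Aged Sham 2 and 3 and in Aged Bleo 2 and 4. The intronic region 84.3 kb downstream (chr5:147641539-147641820) was called in Young Sham 1 to 4, with 22, 24, 19 and 19 fragments, in Aged Sham 2 and in Aged Bleo 2. An intronic region 56.9 kb downstream (chr5:147668983-147669247) was called in 3 of 4 Aged Sham samples and in no Aged Bleo sample, with 1 sample in each young group.

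Flt4 (chr11:49609679-49652739, plus strand) had all 7 regions inside the gene. The regions 0.2 kb and 3.9 kb downstream of the TSS were called in every sample, at median percentiles of 15.4 and 15.3, and the next, 22.8 kb downstream, in 15 samples at a median of 2.90. The 3.9 kb region had percentiles of 15.8, 5.6, 10.9, 12.2 and 7.5 in Young Sham and of 20.5, 19.9, 14.8, 35.2 and 35.7 in Aged Bleo, which overlapped only through Young Sham 1 and Aged Bleo 3. Young Bleo samples had 13.7, 10.6, 19.9 and 21.1, and Aged Sham samples 23.4, 14.3, 22.1 and 4.4. At the TSS region the 4 groups overlapped, with values of 9.87 to 32.2.

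A pair of Flt4 regions was called mainly in Young Bleo. Both are placed in introns by their midpoint, and the 200 bp around the summit of the 17.2 kb region overlap an exon. The region 26.3 kb downstream (chr11:49635732-49636177) had a peak in Young Bleo 1 to 3, with 16, 14 and 21 fragments, and in no other sample. The region 17.2 kb downstream (chr11:49626665-49627069) had a peak in the same 3 samples, with 18, 14 and 21 fragments, and in Aged Bleo 1 with 13. Young Bleo 4, the only Young Bleo sample in the lane of the Young Sham samples, had neither. The part of lane in this difference was not tested.

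Nrp1 (chr8:128359073-128505476, plus strand) had its strongest region 1.8 kb upstream of the TSS, with a median percentile of 41.4 (23.05 to 52.99) and 149 fragments, the highest median of the 87 regions. Its percentiles were 27.6, 23.05, 29.3, 31.6 and 33.5 in Young Sham, 41.9, 45.9, 32.4 and 41.0 in Young Bleo, 37.9, 41.8, 53.0 and 40.4 in Aged Sham, and 46.1, 44.1, 42.4, 49.1 and 50.7 in Aged Bleo. Every Aged Sham and Aged Bleo value was above every Young Sham value. The Aged Sham difference of 14.3 points (SE 4.51) did not pass the test (limma, adjusted p = 0.121). The peak at the TSS itself (chr8:128358810-128359414) was called in Young Sham 2, all 4 Young Bleo samples, Aged Sham 4 and Aged Bleo 1 to 3. Where called it had 26 to 62 fragments but a fold enrichment of only 3.07 to 4.43, since the local background was 7.81 to 15.1 fragments. At the Kdr promoter, by comparison, fold enrichment was 10.2 to 15.8 over a background of 2.52 to 6.85.

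The intronic Nrp1 region 28.3 kb downstream (chr8:128387117-128387711) was called in every sample and was lowest in Young Bleo. Its percentiles were 51.7, 32.2, 47.5, 44.0 and 40.1 in Young Sham, 17.9, 22.5, 16.8 and 25.5 in Young Bleo, 50.2, 38.2, 43.4 and 30.3 in Aged Sham, and 27.3, 20.8, 37.8, 36.0 and 35.8 in Aged Bleo. Young Bleo did not overlap with either sham group. A neighbouring intronic region 14.6 kb downstream (chr8:128373437-128373885) was called in 4 of 5 Young Sham samples, no Young Bleo sample, 1 of 4 Aged Sham and 1 of 5 Aged Bleo samples. A further intronic region, 78.5 kb downstream, was called in 16 samples at a median percentile of 18.8.

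Nrp2 (chr1:62703317-62818692, plus strand) held the strongest region of all 87, an intergenic one 38.1 kb upstream (chr1:62664904-62665510). It was called in every sample, at percentiles of 79.0 to 94.1 and with 54 to 195 fragments. The intronic region 21.4 kb downstream followed, at a median percentile of 28.7. Nearer the gene, the region 2.1 kb upstream had percentiles of 35.1, 25.7, 20.2, 35.3 and 33.5 in Young Sham and of 10.8, 8.8, 6.9 and 8.7 in Young Bleo, which did not overlap. Aged Sham samples had 13.9, 25.4, 21.99 and 12.2, and Aged Bleo samples ranged from 5.7 to 39.9. The promoter region ran the other way, with 10.3, 7.9, 14.2, 5.7 and 11.3 in Young Sham, 24.8, 22.2, 28.5 and 20.7 in Young Bleo, and 33.4, 20.97, 15.02, 36.95 and 19.9 in Aged Bleo, both of which lay wholly above Young Sham. Aged Sham (19.8, 10.8, 37.1 and 19.01) overlapped with Young Sham. The Young Bleo difference at the promoter, 14.2 points (SE 4.91), did not pass the test (limma, adjusted p = 0.127).

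A pair of intronic Nrp2 regions passed an unadjusted p in a comparison of presence. The region 26.4 kb downstream (chr1:62729557-62729974) was called in no Young Sham sample and in all 4 Young Bleo samples, with 25, 25, 24 and 16 fragments. It was also called in Aged Sham 4 with 18 fragments and in Aged Bleo 1 and 2 with 22 each. Within lanes, it was called in 2 of 5 bleomycin and 1 of 1 sham samples of lane 6, in 3 of 3 and 0 of 3 of lane 7, and in 1 of 1 and 0 of 5 of lane 8. The region 3.4 kb downstream (chr1:62706367-62707102) was called in 4 of 5 Young Sham samples, 1 of 4 Young Bleo, 1 of 4 Aged Sham and no Aged Bleo sample.

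Of the ligands, Vegfa (chr17:46016993-46032377, minus strand) is annotated with 2 TSSs, and its strongest region was intergenic, 31.1 kb upstream, with a median percentile of 68.1 (47.8 to 92.5). The regions 9.0 kb and 2.6 kb upstream, the latter of the inner TSS, followed at 20.5 and 19.6. The 9.0 kb region had percentiles of 14.5 to 50.3 in Young Sham and 2.06 to 12.2 in Aged Sham, which did not overlap, but its difference of -20.4 (SE 7.64) did not pass the test (limma, adjusted p = 0.199). The promoter region was called in all samples at percentiles of 3.3 to 20.1, and the groups overlapped. The intergenic region 12.7 kb downstream of the inner TSS (chr17:46012290-46012622) was called in Young Sham 1 to 4, with 13, 12, 18 and 18 fragments, in Aged Bleo 1 and 2, and in no Young Bleo or Aged Sham sample.

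Vegfc (chr8:54077532-54186454, plus strand) had its promoter as strongest region, with a median percentile of 26.7 (19.7 to 46.2), followed by an intronic region 76.0 kb downstream at 9.46. The promoter had percentiles of 26.9, 19.7, 25.7, 21.9 and 29.6 in Young Sham, 26.3, 22.3, 26.5 and 26.4 in Young Bleo, 32.0, 25.7, 39.3 and 37.7 in Aged Sham, and 19.9, 32.5, 46.2, 32.2 and 36.4 in Aged Bleo, and the groups overlapped. Far upstream, adjacent intergenic regions went different ways. The one 207.3 kb upstream (chr8:53870035-53870379) was called in all 5 Young Sham samples, with 16, 20, 13, 14 and 18 fragments, in 3 of 4 Young Bleo, and in 1 sample of each aged group. The one 206.5 kb upstream (chr8:53870855-53871151) was called in no Young Sham sample, in Young Bleo 1 to 3 with 23, 21 and 25 fragments, in 2 of 4 Aged Sham and in 3 of 5 Aged Bleo samples. Young Bleo 4 again had no peak there.

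**Figure D2:**
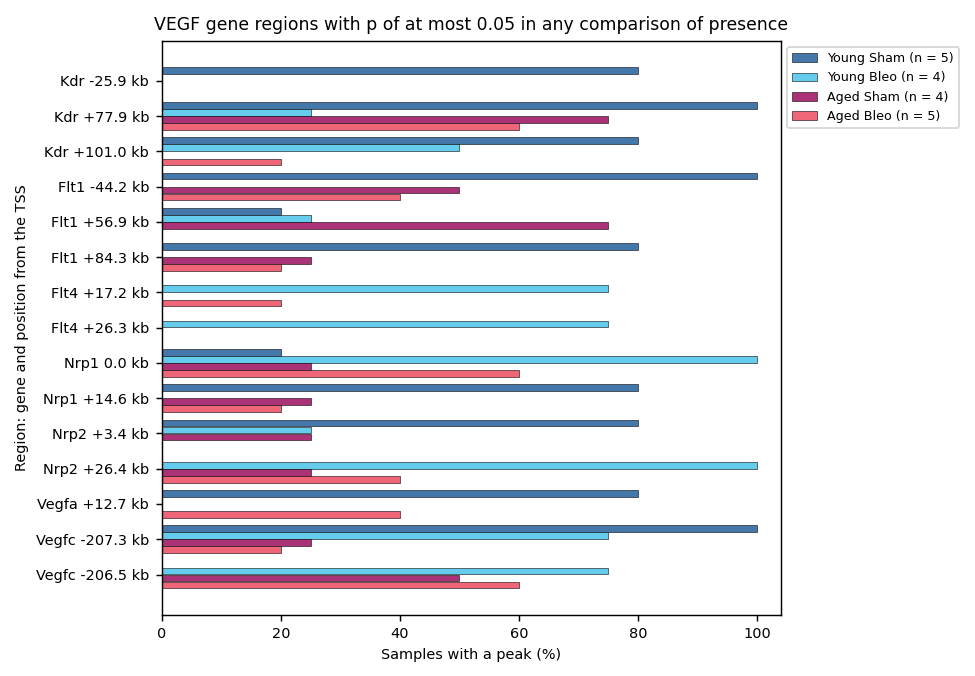
Horizontal axis: percent of the samples of each group with a peak. Rows are the 15 regions whose presence differed between groups in at least 1 comparison (exact p at most 0.05, unadjusted), named by gene and position from the TSS, and bars stand for the 4 groups. All 3 Kdr regions and the Vegfa region have their highest share in Young Sham, and both Flt4 regions have it in Young Bleo.

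Presence was tested in each comparison with Fisher's exact test (two-sided) and strength with limma, both over all regions. The first 3 comparisons share the Young Sham samples and so are not independent. No region passed Benjamini-Hochberg adjustment for presence in any of the 6 comparisons, so presence was called at an unadjusted p of at most 0.05, and each count of members is set beside the share of all regions called in the same direction. Over the 6 comparisons 22 such calls were made, at 15 regions. None of them was kept when each list was reduced to its 21050 strongest peaks, where 3 of the 22 still had a consensus region. With 4 against 5 samples the smallest p the exact test can give is 0.00794, as with 5 against 5.

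Aged Sham was compared with Young Sham to ask how these loci differ with age without injury, although the groups shared no lane. Fewer regions had a peak in Aged Sham over the genome, with 4.9% of all regions called lower and 0.264% called higher, and 4 of the 87 VEGF regions (4.60%) were lower and none was higher. The 4 were the Kdr regions 25.9 kb upstream and 101.0 kb downstream, the Vegfa region 12.7 kb downstream and the Vegfc region 207.3 kb upstream, each at exact p = 0.0476, and the smallest adjusted p among the 87 was 0.922. Each of these calls was lost in 8 of the 9 runs that left out 1 sample. In strength, 1.02% of the 17432 shared regions were called and none of the 28 VEGF regions was (limma, smallest adjusted p = 0.121, with 6 at an unadjusted p of at most 0.05).

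Young Bleo was compared with Young Sham to ask what remained of the injury in young lungs at day 30. Here 6 VEGF regions (6.90%) were lower and 5 (5.75%) higher, against 1.96% and 3.98% of all regions. The lower regions were those of Kdr at 25.9 kb upstream and 77.9 kb downstream, of Flt1 at 44.2 kb upstream and 84.3 kb downstream, of Nrp1 at 14.6 kb and of Vegfa at 12.7 kb downstream. The higher regions were those of Nrp2 at 26.4 kb downstream, the Nrp1 promoter, the Flt4 regions at 17.2 kb and 26.3 kb and the Vegfc region at 206.5 kb upstream. The Flt1 region 44.2 kb upstream and the Nrp2 region 26.4 kb downstream had an exact p of 0.00794 (adjusted p = 0.535), and the other 9 an exact p of 0.0476. Those 9 were each lost in 8 of the 9 runs that left out 1 sample, and the former pair in none. Young Bleo 4, in the Young Sham lane, had a peak at Nrp2 26.4 kb, Kdr 77.9 kb and the Nrp1 promoter and none at the other 8 of these regions.

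In strength, 3.11% of shared regions differed between Young Bleo and Young Sham, and 2 of the 28 VEGF regions did. The Nrp2 region 2.1 kb upstream was lower by 21.2 percentile points, from 29.95 ± 6.73 (SD, n = 5) to 8.78 ± 1.61 (SD, n = 4), with an SE of 5.52 (limma, adjusted p = 0.043). The Nrp1 region 28.3 kb downstream went from 43.1 ± 7.45 (SD, n = 5) to 20.7 ± 4.03 (SD, n = 4), a difference of -22.4 with an SE of 5.24 (limma, adjusted p = 0.0267). With lane as a covariate the differences were -21.3 and -17.6 (limma, adjusted p = 0.662 and 0.696). Leaving out 1 of the 18 samples at a time, the Nrp2 call was lost in 10 runs and the Nrp1 call in 6. Both were also lost when peaks were ranked among all peaks of their list (limma, adjusted p = 0.0783 and 0.144) and with a replicate block (limma, adjusted p = 0.0916 and 0.0522).

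Aged Bleo against Young Sham had 3 lower VEGF regions (3.45%) and no higher one, against 3.01% and 0.201% of all regions. These were the Kdr region 25.9 kb upstream, the Nrp2 region 3.4 kb downstream and the Vegfc region 207.3 kb upstream, each at exact p = 0.0476. No run that left out 1 sample lost them, which these counts with 5 samples in each group fix in advance. In strength, 4 of the 28 regions were higher, against 10.7% of all shared regions called in either direction. The Flt1 promoter was 18.1 points higher (SE 4.48, limma adjusted p = 0.0174), with 24.2 ± 8.73 (SD, n = 5) in Young Sham and 42.3 ± 3.96 (SD, n = 5) in Aged Bleo. The Nrp1 region 1.8 kb upstream was 17.5 points higher (SE 4.25, limma adjusted p = 0.0162), the Nrp2 promoter 15.4 points (SE 4.63, adjusted p = 0.0412) and the Flt4 region 3.9 kb downstream 14.8 points (SE 4.38, adjusted p = 0.0385). Leaving out 1 sample at a time, the Nrp1 call was kept in all 18 runs, the Flt1 call was lost without Young Sham 2 alone, and the Nrp2 and Flt4 calls were lost in 7 and 6 runs. With a replicate block, 2 VEGF regions were called higher in this comparison instead of 4, where 1833 of the 17432 shared regions were called in either direction. When each peak was ranked among all peaks of its list instead, the median of all shared regions moved by -3.26 points in this comparison. None of the 4 was called and 2 other VEGF regions were lower, where 1394 of the 17432 shared regions were called in either direction. With lane as a covariate all 7 strength calls of all comparisons were lost, and at most 1 of the 17432 regions was called. The median difference of the 28 VEGF regions between Aged Bleo and Young Sham was 6.60 points with lane and 4.68 without. Over all shared regions it was 0.740 and 0.336. Aged Bleo and Young Sham shared no lane, so the value with lane rests on samples of the other groups. The part of lane in this difference was not tested.

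**Figure D3:**
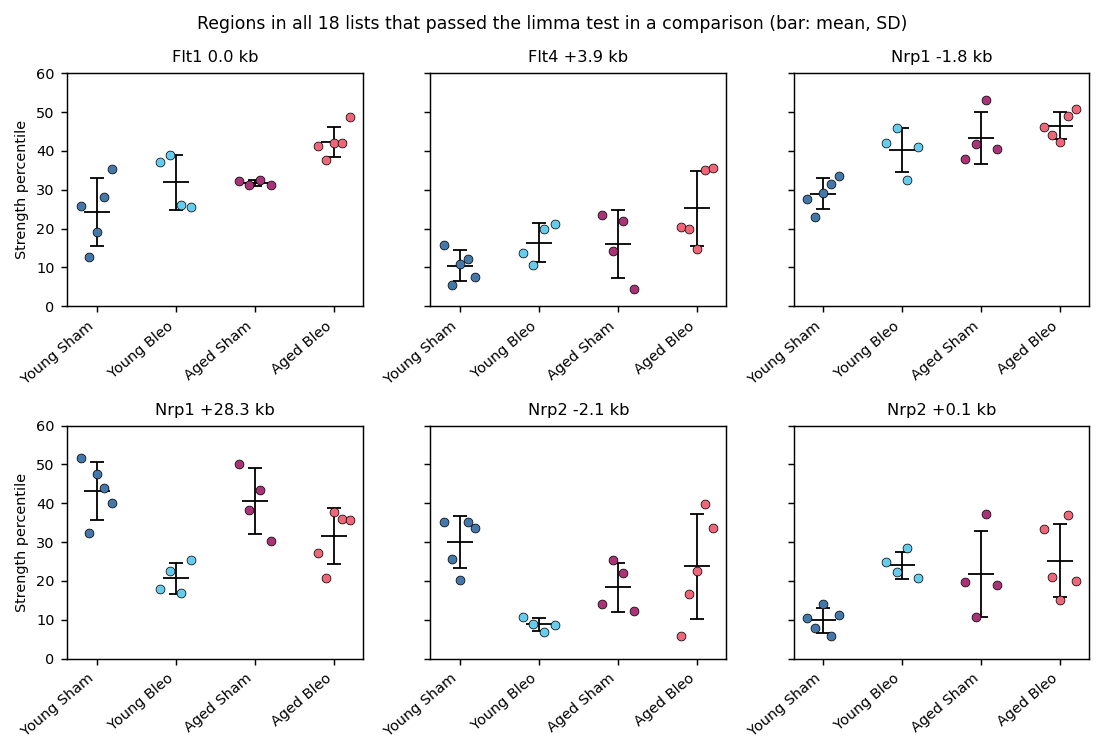
Within-list strength percentile (y axis, 0 to 60) of every sample, by group, for the 6 regions with a strength call in at least 1 comparison. Points are samples and bars are group means with SD; the Nrp1 region at +28.3 kb and the Nrp2 region at -2.1 kb are lowest in Young Bleo, and the Flt1 promoter and Nrp1 -1.8 kb regions are highest in Aged Bleo.

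Aged Bleo against Aged Sham, the response to injury in old animals, had 1 lower region (1.15%), the Flt1 region 56.9 kb downstream (exact p = 0.0476), and no higher one, against 0.41% and 0.475% of all regions. Within lane 6, the only lane with both groups, that region was called in 0 of 5 Aged Bleo and 0 of 1 Aged Sham samples. No VEGF region was called for strength, against 0.677% of all shared regions (limma, smallest adjusted p = 0.21, with 3 at an unadjusted p of at most 0.05). Pooled over treatment, 9 aged samples were set against 9 young ones, and 4.87% of all regions were lower and 0.127% higher with age. The Vegfc region 207.3 kb upstream was called in 2 aged and 8 young samples (exact p = 0.0152, adjusted p = 0.693) and the Kdr region 101.0 kb downstream in 1 and 6 (exact p = 0.0498). No other VEGF region was called for presence and none for strength, against 3.26% of shared regions (limma, smallest adjusted p = 0.0735, 7 at an unadjusted p of at most 0.05). Pooled over age, 1.23% of all regions were lower and 2.17% higher with bleomycin, and the Nrp2 region 26.4 kb downstream was the only VEGF region called, in 6 bleomycin and 1 sham samples (exact p = 0.0498). In strength the Nrp1 region 28.3 kb downstream was 15.7 points lower with bleomycin (SE 3.71, limma adjusted p = 0.0179), against 6.5% of shared regions called. The interaction of age and bleomycin was not called for any of the 28 regions (limma, smallest adjusted p = 0.312).

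**Figure D4:**
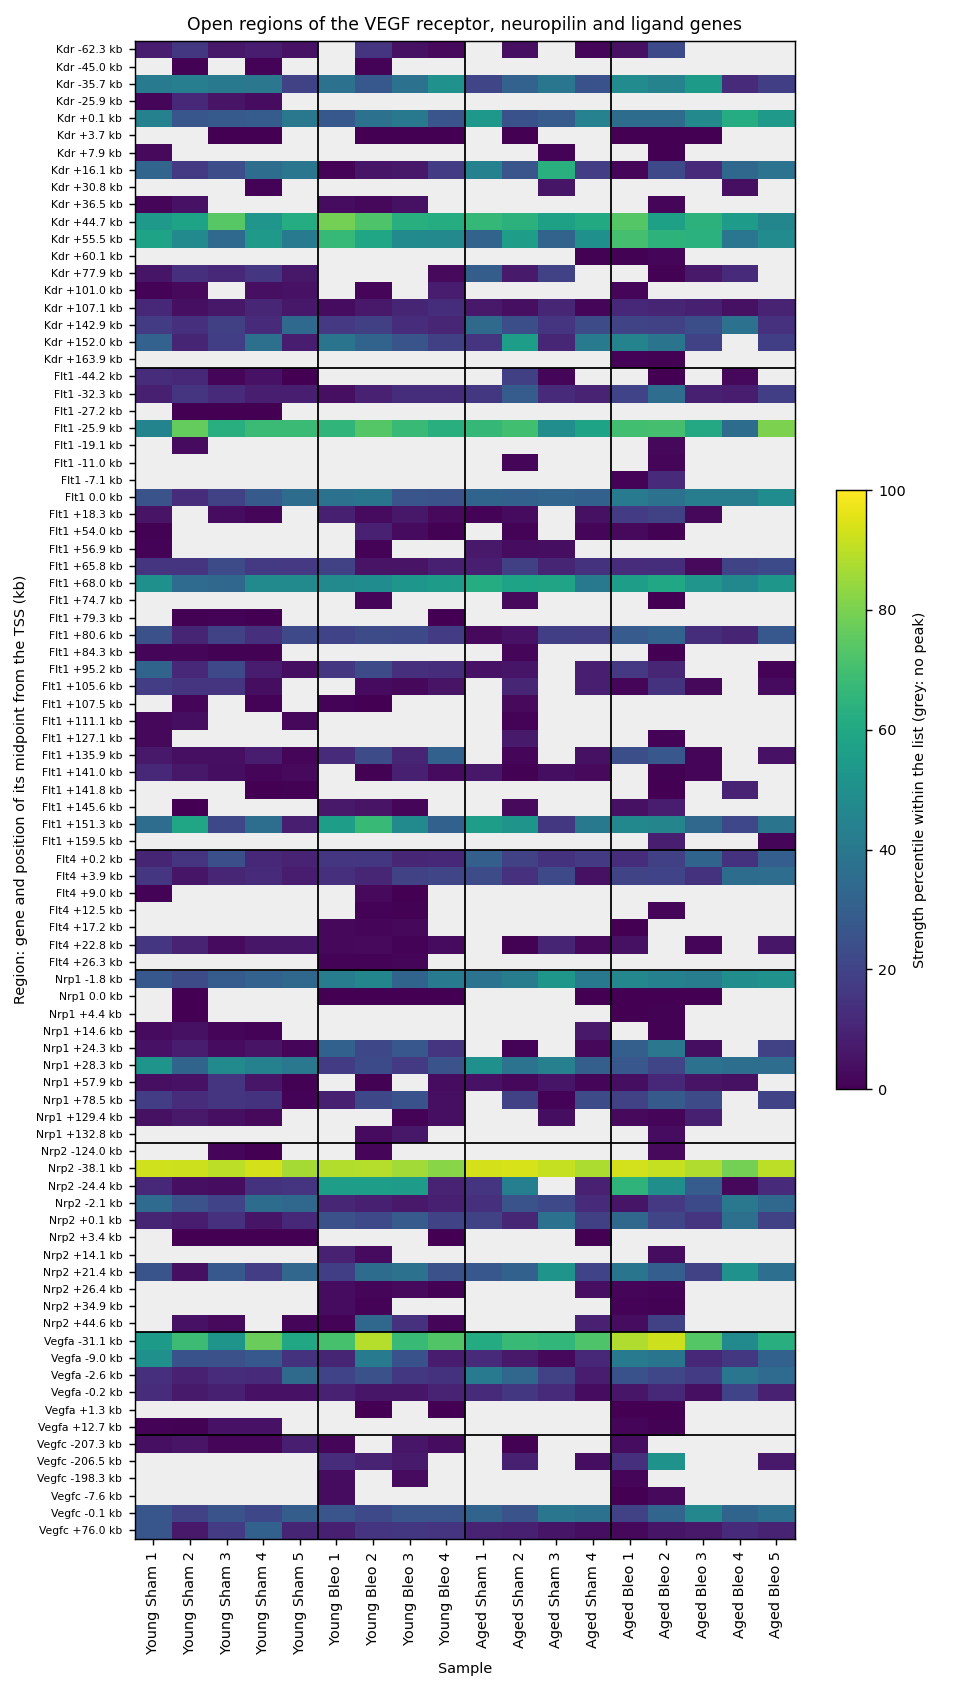
Presence and strength of all 87 regions (rows, ordered by gene and position) in the 18 samples (columns, by group): colour gives the strength percentile and grey cells have no peak. The 28 regions called in every sample run through all columns, and the 20 rarest are seen most often in Aged Bleo 2, which has 14 of them.

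For a summary by gene, the percent of its regions with a peak was computed in each sample and compared by a two-sided exact permutation test over the 6764 genes with 3 or more regions. Kdr had 14, 14, 12, 15 and 11 of its 19 regions called in Young Sham, 9, 13, 11 and 12 in Young Bleo, 9, 11, 11 and 10 in Aged Sham, and 13, 15, 10, 9 and 8 in Aged Bleo. Only Young Sham 5, with 11, overlapped with Aged Sham. Its mean was 69.5% ± 8.65 (SD, n = 5) in Young Sham and 53.9% ± 5.04 (SD, n = 4) in Aged Sham, a difference of -15.5 percentage points (exact permutation p = 0.0317, adjusted p = 0.262). Vegfa went from 80% ± 7.45 (SD, n = 5), with 5, 5, 5, 5 and 4 of its 6 regions, to 66.7% in Aged Sham, where each sample had 4 (exact permutation p = 0.0476, adjusted p = 0.262). Without Young Sham 5 both differences grew, to -18.4 and -16.7 points (exact permutation p = 0.0286 each), and without any other single sample neither was called. All consensus regions went from 71.9% to 59.2% between these groups. After subtracting that percent in each sample, the differences were -2.76 points for Kdr and -0.57 for Vegfa (exact permutation p = 0.452 and 0.921), and with equal list lengths Kdr turned to +4 points (exact permutation p = 0.762). By the same test 18.2% of all genes were called in this comparison, in either direction, and none passed adjustment.

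Flt4 was the gene called in Young Bleo. It had 4, 3, 3, 3 and 3 of its 7 regions in Young Sham, 5, 7, 7 and 3 in Young Bleo, 2, 3, 3 and 3 in Aged Sham and 4, 3, 3, 2 and 3 in Aged Bleo. Young Bleo 1 to 3 stood above every other sample, and Young Bleo 4 was level with Young Sham. The mean rose from 45.7% ± 6.39 (SD, n = 5) to 78.6% ± 27.4 (SD, n = 4), by 32.9 points (exact permutation p = 0.0476, adjusted p = 0.385), in a comparison where 12.4% of all genes were called. It was 44.8 points without Young Bleo 4 (exact permutation p = 0.0179) and not called without any other single sample. With each list reduced to the same number of peaks, its direction turned, to -6.67 points (exact permutation p = 1). Over the 3 lymphatic markers Prox1, Lyve1 and Pdpn, 2 to 4 of 7 regions were called in Young Sham, 3 to 5 in Young Bleo, 2 to 4 in Aged Sham and 0 to 6 in Aged Bleo, with a region over a TSS of Prox1 in 17 samples, of Lyve1 in 7 and of Pdpn in none. Prox1 had 33.3% of its regions called in each Young Sham sample and 100%, 33.3%, 100% and 66.7% in Young Bleo. The Pdpn region was called in Young Bleo 3 and in no Young Sham sample, and Lyve1 had 33.3% to 100% in both groups. The part of lymphatic cells in the Flt4 difference was not tested, and in bulk samples a larger share of one cell type cannot be told apart from more open chromatin per cell.

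**Figure D5:**
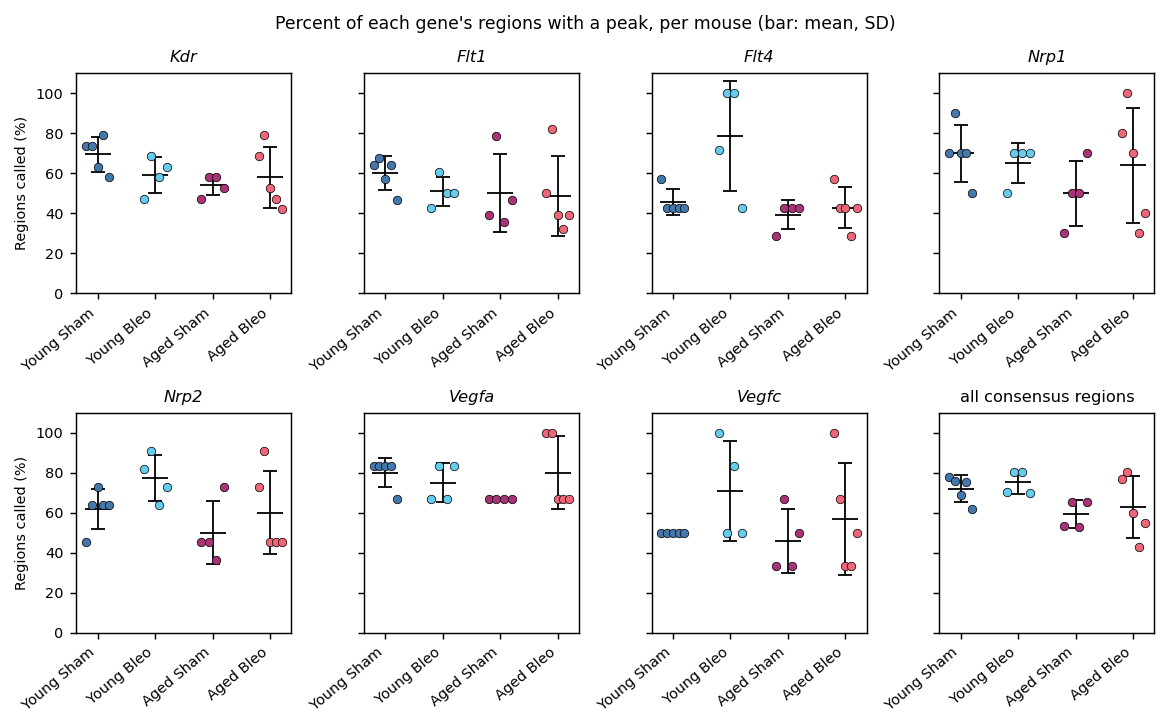
Percent of each gene's regions with a peak (y axis) in every sample, by group, for the 7 genes and for all 47338 consensus regions. Points are samples and bars are group means with SD; Flt4 is highest in Young Bleo 1 to 3, and the Aged Bleo samples spread widely, as they do over all regions.

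No gene was called in Aged Bleo against Young Sham, where 8.83% of all genes were. Without Aged Bleo 2, Kdr (-16.8 points, exact permutation p = 0.0476) and Flt1 (-19.8 points, exact permutation p = 0.0238) were called lower. The share of all genes called in that run is not given here. All consensus regions were also lower in most of the remaining samples, with 76.7%, 59.8%, 43.0% and 54.9% in Aged Bleo 1, 3, 4 and 5. Flt1 had 18, 19, 16, 18 and 13 of its 28 regions in Young Sham, 12, 17, 14 and 14 in Young Bleo, 11, 22, 10 and 13 in Aged Sham and 14, 23, 11, 9 and 11 in Aged Bleo, so that all groups overlapped. Nrp1 had 50% ± 16.3 (SD, n = 4) of its regions called in Aged Sham and 64% to 70% on average in the other groups. Nrp2 ran from 50% ± 15.7 (SD, n = 4) in Aged Sham to 77.3% ± 11.7 (SD, n = 4) in Young Bleo, and Vegfc from 45.8% ± 15.96 (SD, n = 4) to 70.8% ± 25 (SD, n = 4) between the same groups. Over all 87 regions the means were 63.0% ± 6.21, 62.9% ± 6.04, 50.9% ± 9.50 and 56.1% ± 18.0 in the order Young Sham, Young Bleo, Aged Sham, Aged Bleo (SD, n = 5, 4, 4 and 5). All consensus regions had 71.9%, 75.1%, 59.2% and 62.9% in that order.

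Other genes of VEGF signalling were taken from a list of 32, which held 185 regions. Against Young Sham, 11 of these (5.95%) were lower in Aged Sham and none was higher, near the 4.9% and 0.264% of all regions. In Young Bleo 3 (1.62%) were lower and 3 higher, against 1.96% and 3.98% of all regions. In Aged Bleo 4 (2.16%) were lower and none higher, against 3.01% and 0.201%, and set against Aged Sham 2 (1.08%) were higher and none lower, against 0.475% and 0.41%. Of the 21 genes with enough regions for the gene test, 5 were lower in Aged Sham, in a comparison where 18.2% of all genes were called and none passed adjustment. Epas1, a hypoxia-inducible transcription factor abundant in endothelium, had 73.3% of its regions called in Young Sham and 53.7% in Aged Sham (exact permutation p = 0.00794, adjusted p = 0.224). Hif1a, its relative, had 56% and 27.5% (exact permutation p = 0.0159). The adaptor Shb had 95.4% and 82.7% (exact permutation p = 0.0317), and the focal adhesion kinase gene Ptk2 and the calcineurin-dependent factor Nfatc2 were also lower (exact permutation p = 0.0476 each). In Young Bleo the secreted proteoglycan gene Esm1 was the only one called, with 93.3% in Young Sham and 41.7% in Young Bleo (exact permutation p = 0.0238), in a comparison where 12.4% of all genes were called. In Aged Bleo none was, against 8.83% of all genes. The median difference in Aged Sham was -15 points over the list, -11.8 over the 7 genes and -13.3 over all genes tested.

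As a description of likeness, the percent of all consensus regions called in a sample was subtracted from each gene's percent of regions called there. Pearson's r of these differences was computed over the 18 samples for the 842 genes with at least 10 regions. The genes most like Kdr were Coro2b (r = 0.741), Rasgef1a (r = 0.739) and Trim8 (r = 0.711), and those most like Flt1 were Frmd6 (r = 0.815), Rasgef1a (r = 0.709) and Lmo7 (r = 0.676). Nrp1 was most like Calcrl (r = 0.665), Myo10 (r = 0.632) and Piezo2 (r = 0.631), and the genes most like Nrp2 included Adamts17 (r = 0.641) and Ctif (r = 0.616). Both genes of a pair were measured in the same libraries at the same depth, and the part of depth in these values was not tested.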

How the data were processed

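ATAC-seq was done on sorted lung endothelial cells of 18 mice. The authors used the Omni-ATAC protocol, mapped read pairs to mm10 with BWA, removed duplicates and called peaks per sample with MACS2 at a false discovery rate of 1%. The deposited lists give each peak's fold enrichment as a ratio to local background and its p-value and q-value as −log10. Read counts were not used here, so the authors' DiffBind test on reads was not repeated.

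Overlapping peaks (1 bp or more) of the autosomes, X and Y were merged, keeping regions seen in 2 or more samples. Regions were assigned to RefSeq genes, and a promoter region had its midpoint from 1000 bp before a TSS to 100 bp after it. Presence was tested by Fisher's exact test (two-sided), gene percentages by exact permutation (SciPy 1.17.1, Python 3.11.15), and strength percentiles by limma 3.58.1 (R 4.3.3) with all 4 groups in 1 model and adjusted p at most 0.05. Adjustment (Benjamini-Hochberg) ran over all features. The tests were checked on simulated data. Named regions are promoters, those called in a comparison, and the 3 strongest of each gene. The Nrp2 region 24.4 kb upstream is none of these and was chosen after its values were seen. Sequences are shown for some of these regions only, and 1 gene of the likeness ranking is not reported here. The genes and lists were chosen with earlier results of these data known. Alternatives covered stricter peaks, equal list lengths, other overlaps, other strength measures, lane, replicate number and leaving out samples.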

Additional observations from a re-analysis of the deposited data

Results flagged for a closer look

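Among 64 groups of 4 or 5 samples examined, 5 held a sample far from the others by Dixon's test. Chance gives this in about 5% of groups of continuous, normally distributed values. The rate for percents of a few regions, where ties are common, was not tested. In 4 of the 5 flagged groups the percent of a gene's regions called was the same in all other samples, so that a few regions set the gap. Flt4 had 57.1% of its regions called in Young Sham 1 and 42.9% in each other Young Sham sample, and 28.6% in Aged Sham 1 against 42.9% in each other Aged Sham sample. Nrp1 had 50% called in Young Bleo 1 and 70% in each other Young Bleo sample. Vegfa had 66.7% called in Young Sham 5 and 83.3% in each other Young Sham sample. The Vegfc promoter had a strength percentile of 22.3 in Young Bleo 2 and of 26.3 to 26.5 in the others.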

How the results depend on the processing

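Presence calls depend on how many peaks a list holds, no read counts were used, and lane largely follows group. Presence counts were 4, 11, 3, 1, 2 and 1 against Young Sham for Aged Sham, Young Bleo, Aged Bleo, then Aged Bleo against Aged Sham, aged against young, and bleomycin against sham. With each list reduced to its 21050 strongest peaks they were 1, 2, 0, 0, 1 and 1, none of them among these 22 calls. When peaks had to cover at least 50% of the region they were 4, 10, 6, 2, 4 and 3, and 8 of the 22 calls were lost. A fold enrichment of at least 5 gave 7 in Young Bleo, and a −log10 q of at least 5 gave 2 for bleomycin. Leaving out single samples gave 0 to 2, 2 to 6, 3 to 8, 0 to 1, 2 to 6 and 1 to 8. The share of all regions called under each of these alternatives is not given here, so no count is set against it. The regions Nrp2 26.4 kb downstream and Flt1 44.2 kb upstream stayed called in Young Bleo whichever sample was left out, as their counts fix in advance.

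Strength calls were 2 in Young Bleo, 4 in Aged Bleo against Young Sham and 1 for bleomycin. Ranking by −log10 p gave 6 in Young Bleo (2 higher and 4 lower) and 5 in Aged Bleo (4 higher and 1 lower). It gave 1 in Aged Bleo against Aged Sham (higher) and 5 for bleomycin (3 higher and 2 lower). Of all 17432 regions it called 2731, 4956, 2701 and 5105 in that order. Ranking among all peaks gave 0 in Young Bleo, 2 in Aged Bleo, 0 for bleomycin and 1 for age. That ranking called 112, 1394, 553 and 1523 of the 17432 regions in the same order. The 2 in Aged Bleo were lower, whereas the 4 above were higher, and none of the 4 was among them. Nearest TSS alone gave 1 in Young Bleo and 0 for bleomycin, quantile-normalised log2 fold enrichment 2 for bleomycin and 3 in Aged Bleo, where the Flt4 region was lost (limma, adjusted p = 0.0568), and lane as a covariate 0 in each. The quantile-normalised measure called 1326 of all 17432 regions for bleomycin and 1918 in Aged Bleo. Single samples left out gave 0 to 2, 2 to 4 and 1 to 2, and 0 to 1 for age. Of all 17432 regions those runs called 159 to 669 in Young Bleo and 1005 to 1987 in Aged Bleo. The shares for bleomycin and age in those runs are not given here.

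Of the 7 genes, the comparison with Young Sham called 2 for Aged Sham, 1 for Young Bleo and 0 for Aged Bleo. A −log10 q of at least 5 gave 1 in Aged Sham (20.4% of all genes). A fold enrichment of at least 5 gave 1 in Aged Sham (16.3% of all genes) and 0 in Young Bleo (12.8% of all genes). Equal list lengths gave 0 in both, and reversed Kdr in Aged Sham to +4 points (exact permutation p = 0.762) and Flt4 in Young Bleo to -6.67 points (exact permutation p = 1). With equal list lengths 8.66% of all genes were called in Aged Sham and 18.8% in Young Bleo. The 50% cover rule gave 0 in Young Bleo (13.2% of all genes) and 1 in Aged Bleo (17% of all genes). Subtracting the percent of all regions, an alternative chosen after seeing the data, gave 0 in Aged Sham (13.8% of all genes) and 3 in Young Bleo (19.4% of all genes): Kdr (-13.4 points) and Flt1 (-12.3 points), both at exact permutation p = 0.00794, and Flt4 (29.7 points, exact permutation p = 0.0397). Single samples left out gave 0 to 2, 0 to 1 and 0 to 2, and the shares of all genes called in those runs are not given here. The cause of these changes was not tested.

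Replicate numbers do not pair the samples: of 25 same-numbered pairs, 5 had a correlation over 0.1 (range -0.194 to 0.336). With the replicate number as a block, presence gave 0, 0, 0, 0, 1 and 0, strength 0 in Young Bleo and 2 in Aged Bleo, and genes 0 in Aged Sham and Young Bleo. A blocked exact test cannot reach p = 0.05 with 4 or 5 pairs.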

Other observations

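The Nrp2 region 24.4 kb upstream (chr1:62678486-62679278, intergenic) was called in 17 of 18 samples and was chosen after its values were seen. Its strength percentile was 3.16 to 14.97 in Young Sham. In Young Bleo it was 56.1, 55.7, 55.0 and 9.50, in Aged Sham 1, 2 and 4 it was 14.9, 43.1 and 9.28, and in Aged Bleo it was 65.0, 49.8, 29.1, 2.00 and 12.2, so that the groups overlapped. It was not among the 28 regions tested for strength.

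Of the 20 VEGF regions with a peak in only 2 or 3 samples, Aged Bleo 2 held 14, a share of 70%, against 36.0% of all regions so rarely called. Young Bleo 2 held 7 and Aged Bleo 1 held 6, and 4 samples held none.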
